A study of Mus musculus with 121 samples.

Results

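Striatal RNA of mice homozygous for a conditional Gdnf allele in a GDNF cKU x Nestin-Cre cross was compared with that of wild-type mice of the same cross. The libraries were chosen by their labels, as all homozygous (HOM) and wild-type (WT) striatal libraries of this cross except the homozygous library of mouse M4575, whose labels give wild type in the prefrontal cortex and homozygous in the striatum and substantia nigra. This left 5 HOM and 6 WT libraries, 11 of the 121 in the study, each from a separate mouse. The study asked what more GDNF from the gene's own locus does to dopamine circuits, and sequenced poly(A) RNA of the prefrontal cortex (PFC), striatum (STR) and substantia nigra (SN) dissected from brain slices. The same alleles were also recombined in adult mice by AAV-Cre injected into the striatum.

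The WT group was wt/wt, the heterozygous (HET) group wt/cKU and the HOM group cKU/cKU at Gdnf. The mice of all 3 groups were male, 2 months old and untreated, were of a mixed 129Ola, ICR and C57bl6 background, and carried Nestin-Cre, which is active throughout the central nervous system from mid-gestation, so that the change was present from before birth and not limited to the striatum. The 7 HET libraries entered the fit to help estimate the spread between mice, and share the WT libraries with the comparison described here.

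GDNF is a secreted growth factor of the TGF-beta superfamily that binds the receptor GFRA1 and signals through the kinase RET. In the adult striatum it is made by sparse interneurons, for the most part parvalbumin cells, and acts on the axons of midbrain dopamine neurons. Most striatal neurons are GABAergic projection neurons, of which the direct-pathway class carries the dopamine receptor DRD1 with the peptides substance P and dynorphin, and the indirect-pathway class carries DRD2, the adenosine receptor ADORA2A and enkephalin. In the conditional allele an inverted polyadenylation cassette follows the stop codon of Gdnf. Cre turns it around, which gives a messenger RNA with a short 3′ untranslated region that lacks sites through which the native transcript is held down.

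In the authors' table Gdnf (Entrez 14573) lies on the plus strand of mm10 at chr15:7810048-7837580 with 4867 exon bases. Of these, 2748 (56.5%) follow the stop codon and belong to the 3′ untranslated region. A count for Gdnf therefore pools sequence that the mRNA of the recombined allele keeps with sequence that it lacks. The last coding bases, up to the position that the cassette follows, are shown with the stop codon in capitals (GENCODE transcript on GRCm38, plus strand, chr15:7834803-7834832).
Gdnf coding end: cattccgctaaacggtgtggatgtatcTGA

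The labelled region was checked against markers in all Nestin-Cre libraries. Ppp1r1b, which encodes the projection neuron phosphoprotein DARPP-32, was at 1299.8 to 3399.8 CPM (read counts scaled to the size of each library) in striatal libraries, against 67.0 to 298 in PFC and 30.5 to 365 in SN. The dopamine transporter gene Slc6a3, a marker of midbrain dopamine cell bodies, was at 0.0990 to 1.41 CPM in the striatum and 514 to 1503 in SN. The striatal libraries thus carried the RNA of the labelled region. Total counts ran from 16787962 to 22518785 in WT and from 15452066 to 21923928 in HOM libraries.

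Several libraries stood apart. Ttr, the transthyretin gene of the choroid plexus, reached 18128 CPM in HET M4566. HOM M4569 and M4580 had 57.6 and 47.2 CPM of Fos, a gene switched on by neuronal activity, where the other HOM libraries and the WT libraries had 5.60 to 12.4 and 3.29 to 11.5. HOM M4569 was also high in the cortical vesicular glutamate transporter Slc17a7 (379.9 CPM against 6.91 to 228 in WT) and low in myelin genes. HOM M4627 was low in projection neuron genes and high in genes of vessels and meninges. Many values below depend on single libraries, and for some of them the value without that library is also given. In bulk tissue fewer cells of a type and less RNA per cell cannot be told apart.

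No gene passed the threshold for a difference between HOM and WT striatum. Gdnf itself was slightly higher in HOM on average, with overlapping groups. Genes of dopamine and adenosine signalling had medians close to that of all genes. Genes of blood vessels and interferon response leaned higher in HOM, with list medians of 0.47 and 0.39. The first was 0.31 without HOM M4627 and the second 0.23 without HOM M4580. Genes of neuronal activity leaned higher and myelin genes lower only with HOM M4569 and M4580 included, with list medians of -0.21 and -0.00 without them against 0.46 and -0.24 with them. No single member of these lists passed the test. The gene with the smallest p was Gdpd3, a lysophospholipase D of lipid metabolism.

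Of 14465 genes tested among 24412 in the table, 0 (0%) had a Benjamini-Hochberg adjusted p under 0.1 in edgeR's quasi-likelihood test, and the smallest adjusted p was 0.350. At an unadjusted p under 0.05 there were 471 genes (3.26%), 278 higher and 193 lower in HOM. In edgeR's likelihood ratio test on the same 14465 genes, which takes each gene's spread from a trend over all genes, 113 (0.781%) were called, 77 higher and 36 lower. DESeq2, fitted to the 20078 genes with any count, called 1, Gdpd3, so that both the test and the filter differed. Of those 113 genes, 66 had an unadjusted p under 0.05 in the quasi-likelihood test. Over all genes tested the median log2 fold change was -0.00, with 7072 higher and 7393 lower, and the median standard error (SE) was 0.136. In 36 genes (0.249%) the HOM and WT libraries did not overlap, with HOM above in 16 and below in 20. Apart from Gdpd3, every gene named here had an adjusted p of 0.956 or higher in edgeR's quasi-likelihood test with Benjamini-Hochberg adjustment. Counts at p under 0.05 refer to the unadjusted p of that test, and a value after ± is the SE of a log2 fold change.

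The targeted gene did not separate the groups. Gdnf was at 3.87 to 7.53 CPM in WT libraries with a median of 6.11, and at 6.72 in M4393, 6.68 in M4568, 6.14 in M4569, 9.60 in M4580 and 5.53 in M4627. HOM M4580 was the highest and the other 4 HOM libraries lay within the WT range. The log2 fold change was 0.25 ± 0.21 (SE), and without M4580 it was 0.10. The striatal level of Gdnf thus does not check the genotype labels of these libraries, and its count pools exon bases on both sides of the stop codon. The shorter mRNA of the recombined allele offers fewer bases to count, and how far this lowers its count was not tested. By other measures, qPCR for mRNA and an assay of GDNF protein, the study reported striatal levels that rose with allele dose in this cross.

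The values of its receptors depended on 1 library. Gfra1, the GDNF-binding receptor, was at 45.2 to 73.2 CPM in WT and at 58.5 in M4393, 49.2 in M4568, 67.9 in M4569, 61.3 in M4580 and 82.4 in M4627, with a log2 fold change of 0.09. Ret, the signalling kinase, was at 1.87 to 6.78 CPM in WT and at 1.58 in M4393, 4.23 in M4568, 2.51 in M4569, 3.85 in M4580 and 9.10 in M4627, with a log2 fold change of 0.03. Among HOM and WT libraries M4627 was the highest for both genes, and the groups overlapped. Without M4627 the log2 fold changes were -0.02 for Gfra1 and -0.46 for Ret. Of 14 GDNF family ligands and receptors 9 were tested and 8 were higher in HOM, with a median log2 fold change of 0.08 and none at p under 0.05. Among them Sdc3, a heparan sulfate proteoglycan that binds GDNF and the most abundant member per length, had 0.06, and Gfra4, the receptor of persephin, 0.04.

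**Figure D1:**
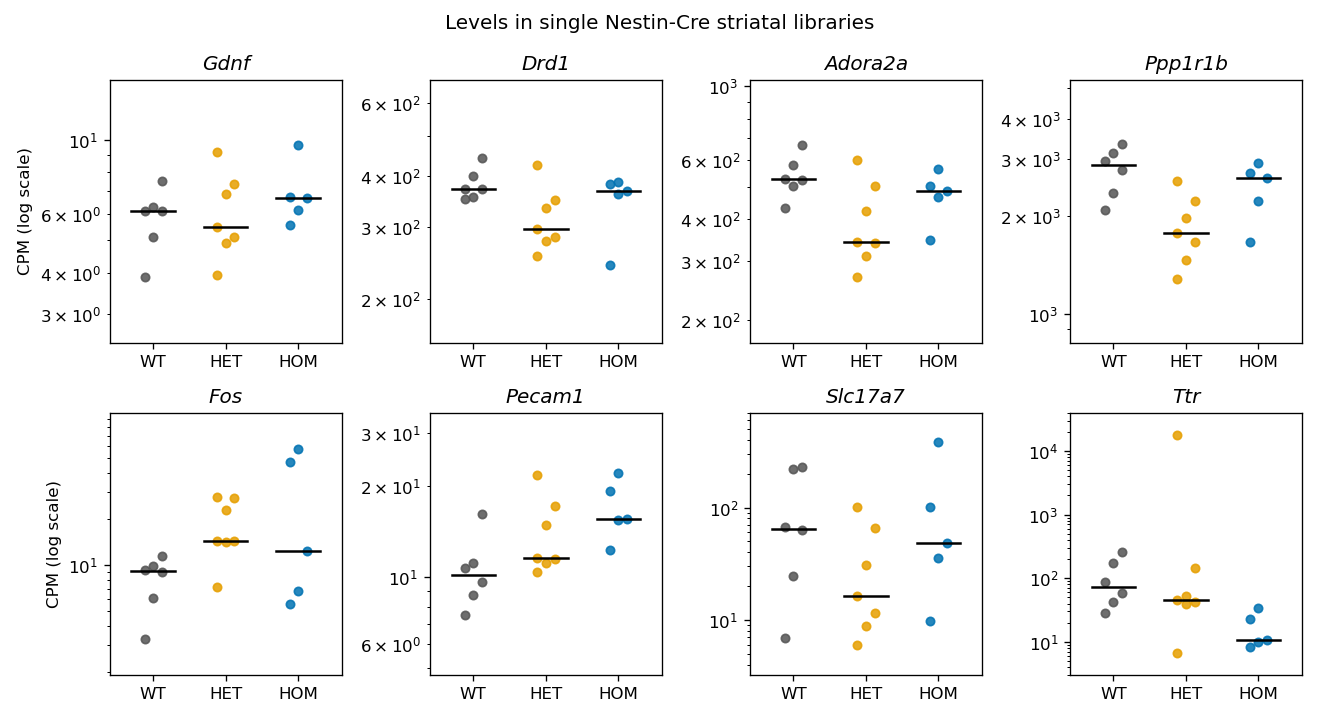
CPM (log scale) of 8 genes in single Nestin-Cre striatal libraries of WT, HET and HOM mice, with a line at the median of each group. The HOM and WT points overlap in each panel, as for Gdnf with 3.87 to 7.53 CPM in WT and 5.53 to 9.60 in HOM.

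Dopamine and adenosine receptors were compared next, as the proteins through which striatal projection neurons read dopamine and adenosine. Drd1 was at 351 to 442 CPM in WT and at 381 in M4393, 367 in M4568, 362 in M4569, 385 in M4580 and 242 in M4627. Drd2 was at 179 to 227 in WT and at 199.7 in M4393, 175 in M4568, 179 in M4569, 207 in M4580 and 148 in M4627. Adora2a was at 433 to 665 in WT and at 565 in M4393, 466 in M4568, 485 in M4569, 503 in M4580 and 348 in M4627. In all 3 genes M4627 was the lowest HOM library, below every WT library, and the other 4 lay within or near the WT range. The log2 fold changes were -0.14 ± 0.13 for Drd1, -0.16 ± 0.15 for Drd2 and -0.19 ± 0.18 for Adora2a (SE). Without M4627 they were -0.03, -0.10 and -0.10. Of 5 dopamine receptor genes 4 were tested and 1, the low Drd3, was higher, with a median of -0.09. Of 15 adenosine receptor and handling genes 13 were tested and 3 were higher, with a median of -0.07. Entpd1, an ectonucleotidase that degrades extracellular ATP, was at 29.5 to 34.3 CPM in WT and at 28.2 in M4393, 26.7 in M4568, 22.9 in M4569, 25.9 in M4580 and 24.2 in M4627, with a log2 fold change of -0.30 ± 0.12. All 5 HOM libraries lay below all WT libraries for Entpd1. Adora1, the inhibitory A1 receptor, had a log2 fold change of -0.03.

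Genes that make and clear dopamine showed no shared direction. Th, which encodes tyrosine hydroxylase, was at 10.9 to 15.4 CPM in WT and at 16.7 in M4393, 10.6 in M4568, 12.0 in M4569, 10 in M4580 and 12.9 in M4627, a low level in a region that receives dopamine axons but holds few of their cell bodies. Its groups overlapped, with HOM M4393 the highest library and HOM M4580 the lowest, and the log2 fold change was -0.12. Nr4a2, a transcription factor of dopamine neurons that cortical neurons also express, was at 0.809 to 54.4 CPM in WT and at 13.8 in M4393, 12.0 in M4568, 70.5 in M4569, 1.00 in M4580 and 7.41 in M4627. Its high values fell in libraries of both groups, and M4569, the highest, was also the highest in Slc17a7. Over 12 genes of dopamine synthesis, transport and breakdown 8 were higher, with a median of 0.04. Qdpr, which regenerates the cofactor of tyrosine hydroxylase, had a log2 fold change of -0.33. Of 10 transcription factors of midbrain dopamine neurons 3 were tested, with a median of -0.44 and Otx2 at -0.49 ± 0.99 (SE), which was -1.71 without M4627 and -0.19 without M4569. Otx2 is also on the list of choroid plexus markers, where its value is the median.

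Projection neuron markers leaned lower in HOM by a small amount. Of 24 genes shared by both projection classes 1 was higher and 23 lower, with a median log2 fold change of -0.16 against -0.00 over all genes and 2 lower at p under 0.05. Summed over the list, WT libraries had 18457 to 24629 CPM and HOM libraries 22749 in M4393, 19518 in M4568, 19314 in M4569, 21542 in M4580 and 15347 in M4627. M4627 was below every WT library, and without it the median was -0.08. Ppp1r1b, the most abundant member per length, was at 2095 to 3351 CPM in WT and at 2927 in M4393, 2624 in M4568, 2719 in M4569, 2230.2 in M4580 and 1668 in M4627, with a log2 fold change of -0.19 ± 0.17 (SE). Pde1b, a calmodulin-dependent phosphodiesterase, had -0.18. The members under 0.05 were Rxrg, a retinoid receptor (-0.46 ± 0.22), and Ptpn5, the striatum-enriched phosphatase STEP (-0.20 ± 0.10).

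Direct-pathway markers had a median of -0.14 over 10 genes, 3 of them higher, and indirect-pathway markers -0.05 over 8 genes, 4 of them higher. Tac1, the substance P precursor of direct-pathway cells, was at 258 to 380.1 CPM in WT and at 339 in M4393, 318 in M4568, 335 in M4569, 259 in M4580 and 183 in M4627, with a log2 fold change of -0.22. Penk, the enkephalin precursor of indirect-pathway cells, was at 2239 to 3509 in WT and at 3043 in M4393, 3199 in M4568, 3267 in M4569, 2296 in M4580 and 1655 in M4627, with -0.11. For both peptides M4627 was the lowest HOM library and below every WT library, and without it the log2 fold changes were -0.09 for Tac1 and 0.02 for Penk. The direct-pathway median without it was -0.06. Pdyn, the precursor of dynorphin, went the other way, at 116 to 173 CPM in WT and at 162 in M4393, 146 in M4568, 239 in M4569, 174 in M4580 and 188 in M4627. Its groups overlapped, 3 HOM libraries lay above all WT libraries, and the log2 fold change was 0.42 ± 0.13 (SE). The dynorphin receptor gene Oprk1 had 0.32 ± 0.14. Over 12 opioid and tachykinin genes 7 were higher, with a median of 0.09.

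The cannabinoid receptor gene Cnr1, whose product damps transmitter release from axon terminals, had the lowest log2 fold change among the 8 endocannabinoid genes tested. It was at 399 to 755 CPM in WT and at 599 in M4393, 310.4 in M4568, 288 in M4569, 280.4 in M4580 and 163 in M4627. M4393 lay near the WT median, and the other 4 HOM libraries were below every WT library. The log2 fold change was -0.91 ± 0.33 (SE), it passed in the likelihood ratio test, and without M4627 it was -0.73. In HET libraries, fitted against the same WT libraries, the log2 fold change of Cnr1 was -1.35. The list's median was -0.07, and Abhd12, a monoacylglycerol hydrolase and its most abundant member per length, had -0.09.

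Among interneuron markers Pvalb had the largest difference. Pvalb, the calcium buffer parvalbumin of fast-spiking cells, was at 9.30 to 59.8 CPM in WT with a median of 28.0 and at 18.6 in M4393, 21.2 in M4568, 13.7 in M4569, 6.20 in M4580 and 8.50 in M4627. All 5 HOM libraries were below the WT median, M4580 and M4627 were below every WT library, and the log2 fold change was -1.27 ± 0.51 (SE). Parvalbumin cells also occur outside the striatum. Cbln3 and Fat2, genes of cerebellar granule cells, were lower in HOM as well, with log2 fold changes of -2.48 and -2.23. Both were chosen after their values were seen. From which cells or tissue the Pvalb RNA came was not tested. Over the 14 markers of interneurons other than cholinergic cells 7 were higher and 7 lower, with a median of 0.01, which was -0.19 without M4569. Sst, the somatostatin peptide, had -0.08, and Gad1, which makes GABA, had -0.16. Of 8 cholinergic markers 2 were higher, with a median of -0.22, which was -0.11 without WT M4545. Chat, the acetylcholine-synthesising enzyme, was at 26.3 to 33.8 CPM in WT and at 19.1 in M4393, 27.5 in M4568, 23.8 in M4569, 27.6 in M4580 and 22.9 in M4627, with overlapping groups and a log2 fold change of -0.30 ± 0.18. The peptidase Ecel1 had -0.16.

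Markers of myelinating oligodendrocytes were all lower on average in HOM, 30 of 30, with a median log2 fold change of -0.24 and none at p under 0.05. Their summed level was 7810.0 to 15348 CPM in WT and 9800.5 in M4393, 10256 in M4568, 5573 in M4569, 6549 in M4580 and 8678 in M4627 in HOM. M4569 and M4580 lay below every WT library, while the other 3 HOM libraries were within the WT range. Without M4569 the median was -0.12, and without M4569 and M4580 it was -0.00. Mbp, which compacts the myelin sheath, was at 2658 to 6431 CPM in WT and at 3748 in M4393, 3945 in M4568, 2292 in M4569, 2505 in M4580 and 3002 in M4627, with a log2 fold change of -0.38 ± 0.21 (SE). Without WT M4394, the highest WT library for Mbp, it was -0.19 and the list median -0.14. M4569 and M4580 were also the highest in Fos, and the part of cell composition in either pattern was not tested.

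Other glial lists had medians near 0. The 14 markers of oligodendrocyte precursors had a median of 0.03, with Cacng4, an AMPA receptor subunit partner, at 0.01 and Lhfpl3 at 0.11. The 18 astrocyte markers had a median of -0.05. Their most abundant member per length, Aldoc, the brain form of aldolase, was at 685 to 984 CPM in WT and at 729 in M4393, 767 in M4568, 864 in M4569, 550.0 in M4580 and 599 in M4627, with overlapping groups and a log2 fold change of -0.26 ± 0.12. The glutamate transporter gene Slc1a2 had -0.17. Over 20 microglial markers 9 were higher and 11 lower, with a median of -0.01, and Ctss, a lysosomal protease, had 0.09.

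Vascular genes leaned higher. Of 18 endothelial and mural markers 17 were higher in HOM, with a median log2 fold change of 0.47, 9 at p under 0.05 and 6 called by the likelihood ratio test. The summed level was 245 to 365 CPM in WT and 316 in M4393, 329.9 in M4568, 362 in M4569, 358 in M4580 and 511 in M4627 in HOM. M4627 was the highest and the other 4 HOM libraries lay within the WT range. Without M4627 the median was 0.31. Pecam1, an endothelial junction protein, was at 7.51 to 16.2 CPM in WT and at 12.3 in M4393, 15.5 in M4568, 15.6 in M4569, 19.3 in M4580 and 22.1 in M4627. M4580 and M4627 were above every WT library, the groups overlapped, and the log2 fold change was 0.67 ± 0.21 (SE). Flt1, a VEGF receptor, had 0.87 ± 0.39, and Myh11, the myosin of vascular smooth muscle, had 1.25 ± 0.48 with 44.0 CPM in M4627 and 4.08 to 11.01 in WT. The 2 most abundant members per length did not follow, with 0.06 for Vtn, a pericyte adhesion protein, and -0.10 for Ly6c1, an endothelial surface protein. Nos3, the endothelial nitric oxide synthase, was at 4.23 to 6.36 CPM in WT and at 6.72 in M4393, 8.23 in M4568, 7.74 in M4569, 8.90 in M4580 and 13.6 in M4627, with all HOM above all WT libraries and a log2 fold change of 0.74 ± 0.19 (SE).

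Genes of tissue around the striatum depended on single libraries. Of 14 meningeal fibroblast markers 12 were higher, with a median of 0.31, and without M4627 it was -0.10. Bgn, a proteoglycan of that tissue, was at 8.19 to 11.1 CPM in WT and at 8.44 in M4393, 9.18 in M4568, 13.8 in M4569, 10.6 in M4580 and 26.7 in M4627, and M4569 and M4627 lay above the WT range. Its log2 fold change was 0.58, and 0.19 without M4627. Igf2, a growth factor made in the meninges, had 0.39 ± 0.61 (SE). The 11 ependymal markers tested had a median of 0.13 with M4627 and -0.50 without it, and their members Rarres2 and Rsph1 had 0.04 and 0.14, and -0.36 and -0.17 without it. Of 14 choroid plexus markers 9 were tested and all 9 were lower, with a median of -0.49, the value of Otx2. Ttr was at 28.4 to 261 CPM in WT and at 8.24 in M4393, 10.7 in M4568, 9.82 in M4569, 23.3 in M4580 and 33.7 in M4627. Only M4627 was above the lowest WT library, and the log2 fold change was -2.65 ± 1.59 (SE). Without HOM M4627 the choroid plexus median was -0.74, without HOM M4569 -0.32 and without HET M4566 -0.45. Clic6, another choroid plexus gene, had -0.06.

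Markers of neurons from neighbouring regions varied between libraries in both groups. Slc17a7 was at 6.91 to 228 CPM in WT and at 102 in M4393, 48.4 in M4568, 379.9 in M4569, 9.70 in M4580 and 35.3 in M4627. The groups overlapped over a wide range, the log2 fold change was 0.18 ± 0.88 (SE), and without M4569 it was -1.06. Of 16 cortical excitatory markers 10 were higher, with a median of 0.11, which was -0.16 without M4569 and 0.45 without WT M4609. Their summed level was 471 to 869.5 CPM in WT and 661 in M4393, 542 in M4568, 1142 in M4569, 419 in M4580 and 443 in M4627 in HOM, and Lamp5, the most abundant per length, which the striatum also expresses, had -0.08. The 10 thalamic and septal markers had a median of 0.12, and -0.27 without M4627, with Calb2, the calcium buffer calretinin, at -0.52 and the kinase Prkcd at 0.22. The 14 immature neuron and proliferation markers tested had a median of 0.07, which was 0.30 without M4569 and -0.05 without M4627. Among them Tubb3, a neuronal tubulin, had -0.10 and Dlx6os1 -0.20. Of 5 blood markers 4 were in the table and 1 was tested, Alas2, an erythroid haem enzyme, at -0.36.

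Interferon response genes were higher on average in HOM, 21 of 21 tested, with a median log2 fold change of 0.39. Of these, 7 were at p under 0.05 and 1, the apoptosis-linked Xaf1, was called by the likelihood ratio test. The summed level was 105 to 131 CPM in WT and 122 in M4393, 134 in M4568, 142 in M4569, 184 in M4580 and 135 in M4627 in HOM. M4580 was the highest, M4393 lay within the WT range and the other 3 lay just above it. Without M4580 the median was 0.23. Irf7, a transcription factor that amplifies interferon signals, was at 0.732 to 1.49 CPM in WT and at 0.857 in M4393, 1.49 in M4568, 2.61 in M4569, 2.70 in M4580 and 1.52 in M4627, with a log2 fold change of 1.01 ± 0.32. Trim30a, a ubiquitin ligase of innate immunity, was at 0.795 to 2.43 CPM in WT and at 2.90 in M4393, 2.15 in M4568, 2.27 in M4569, 3.55 in M4580 and 3.53 in M4627, with 0.84 ± 0.23. Among HOM and WT libraries M4580 was the highest for both, and the groups overlapped. The 2 most abundant members per length had smaller differences, with 0.18 for Ifi27, high in M4580 alone (30.1 CPM against 15.8 to 18.2 in the other HOM libraries), and 0.02 for Stat2, which carries the interferon signal to the nucleus. Of 15 antigen-presenting MHC genes tested 13 were higher, with a median of 0.11, B2m at 0.07 and H2-K1 at 0.04.

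Immediate-early genes, transcribed within minutes of neuronal activity, split the HOM group. Of 25 tested 20 were higher, with a median log2 fold change of 0.46, 6 at p under 0.05 and 10 called by the likelihood ratio test. Their summed level was 1089 to 1506 CPM in WT and 1004 in M4393, 1117 in M4568, 2096 in M4569, 2234 in M4580 and 999 in M4627 in HOM. M4569 and M4580 were above every WT library, and the other 3 were within or below the WT range. Without these 2 libraries the median was -0.21. Fos was at 3.29 to 11.5 CPM in WT and at 5.60 in M4393, 12.4 in M4568, 57.6 in M4569, 47.2 in M4580 and 6.80 in M4627, with a log2 fold change of 1.66 ± 0.52 (SE). Arc, a postsynaptic protein, was at 48.7 to 125 CPM in WT and at 54.9 in M4393, 85.4 in M4568, 307 in M4569, 318 in M4580 and 37.1 in M4627, with 0.74 ± 0.45. In both genes M4569 and M4580 were far above the rest. Nr4a3, a nuclear receptor, was also high in M4627, at 13.2 in M4393, 16.0 in M4568, 36.0 in M4569, 39.5 in M4580 and 33.7 in M4627 against 6.57 to 23.02 in WT (log2 fold change 0.98 ± 0.31). Egr1, the most abundant member per length, had 0.13, and -0.08 without M4580, and Egr3 had -0.02.

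**Figure D2:**
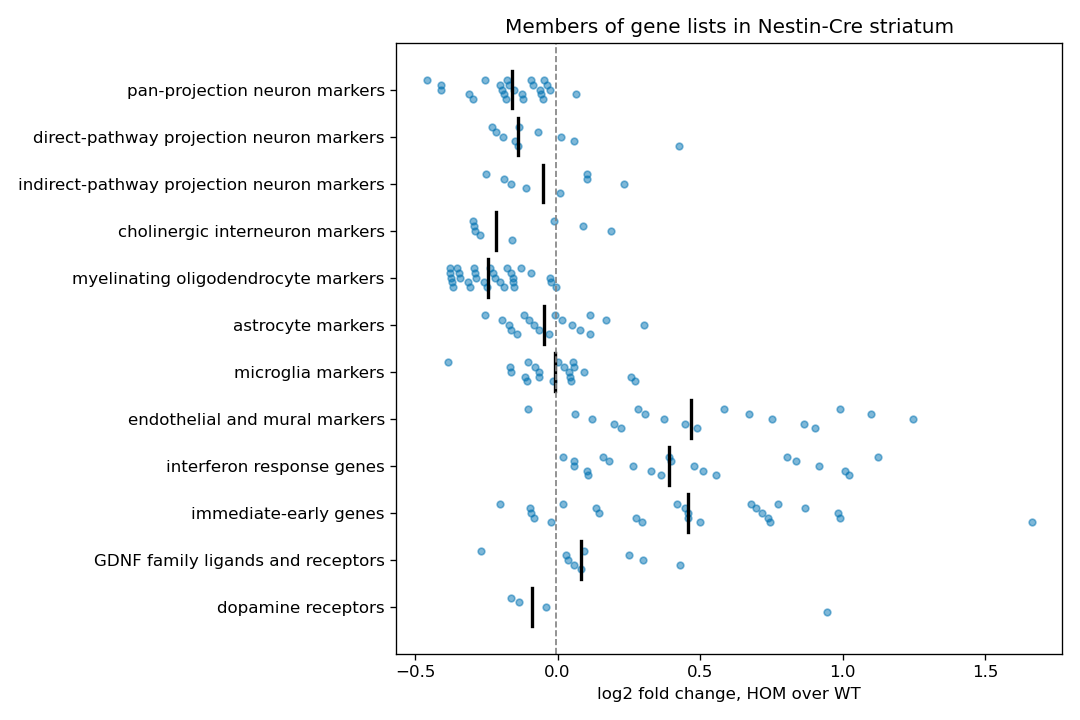
log2 fold change, HOM over WT, of each tested member (points) of 12 gene lists in Nestin-Cre striatum, with a black line at each list's median and a dashed line at the median of all genes. Endothelial and mural markers (0.47), interferon response genes (0.39) and immediate-early genes (0.46) have the highest medians of the lists drawn, and myelinating oligodendrocyte markers (-0.24) the lowest.

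Lists of striatal signalling genes had medians close to that of all genes. Among RGS proteins, which shorten G-protein signals, 8 of 16 were higher, with a median of -0.00. Rgs4, the most abundant per length, was at 891 to 1508 CPM in WT and at 1346 in M4393, 903 in M4568, 980.3 in M4569, 720.0 in M4580 and 442 in M4627, with M4580 and M4627 below the WT range and a log2 fold change of -0.46 ± 0.24, which was -0.30 without M4627, and the striatal Rgs9 had -0.06. Among phosphodiesterases, which degrade cyclic nucleotides, 11 of 18 were higher, with a median of 0.07 and Pde2a at -0.03. For GABA synthesis, transport and receptors the count was 14 of 22 and the median 0.05, with the GABA-B subunit gene Gabbr1 at 0.01. Of the glutamate receptor genes 15 of 24 were higher, with a median of 0.06, and the NMDA and AMPA subunit genes Grin1 and Gria2 had -0.00 and 0.04. The acetylcholine receptor count was 4 of 12, with a median of -0.06, and the muscarinic receptor genes Chrm4 and Chrm1 had -0.15 and -0.02. Without M4627 that median was -0.22. The serotonin receptor count was 7 of 11, with a median of 0.08, Htr2c at 0.21 and Htr1b at 0.14.

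Trophic, hormonal and metabolic lists likewise had medians near 0. Neurotrophins and their receptors had 4 of 8 higher and a median of -0.05, with Ntrk2, the BDNF receptor, at 0.01 and Manf, a secreted factor of the endoplasmic reticulum, at -0.19. Circadian clock genes had 13 of 19 higher and a median of 0.10, with the clock output factors Tef and Dbp at 0.04 and 0.31. Glucocorticoid-responsive genes had 7 of 15 higher and a median of -0.02, with the metallothioneins Mt1 and Mt2 at -0.16 and -0.11. Cholesterol synthesis genes had 9 of 22 higher and a median of -0.04, with the pathway enzymes Msmo1 and Hmgcs1 at -0.09 and -0.09.

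Gdpd3 (Entrez 68616, chr7:126766414-126775645) had the smallest p of all genes. It was at 0.170 to 0.586 CPM in WT and at 5.34 in M4393, 8.76 in M4568, 7.88 in M4569, 0.850 in M4580 and 9.58 in M4627. All HOM libraries lay above all WT libraries, with M4580 close to WT and the other 4 far above. The log2 fold change was 3.94 ± 0.71 (SE), with an adjusted p of 0.350 in edgeR's quasi-likelihood test with Benjamini-Hochberg adjustment and 0.000363 in DESeq2. Without M4580 the quasi-likelihood test called it, with a log2 fold change of 4.23 and a Benjamini-Hochberg adjusted p of 0.0504, and with only WT and HOM in the fit its adjusted p was 0.0523.

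The level of Gdpd3 went with the mouse across brain regions. On CPM scaled over all Nestin-Cre libraries, M4580 had 0.799 to 1.79 in its 3 regions while HOM M4568 had 8.86 to 12.2 and M4569 5.37 to 14.4. Among WT mice, M4329, which has no striatal library here, had 10.7 to 16.0 in PFC and SN and M4396 had 4.67 in PFC. HET mice were split as well, with M4577 and M4606 at 0.564 to 1.37 and 0.357 to 0.637 and the 5 other HET mice at 5.07 to 18.5. High and low mice thus occurred in all 3 genotypes over the regions, and the 6 WT mice with a striatal library were all low. M4575, the mouse with conflicting labels, was low in all 3 regions at 0.684 to 0.998 CPM. In AAV-Cre striatum, from separate mice, Gdpd3 was at 5.71 to 18.1 CPM with a median of 12.2 in WT and 0.683 to 14.6 CPM with a median of 6.05 in HOM, with a log2 fold change of -0.80.

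**Figure D3:**
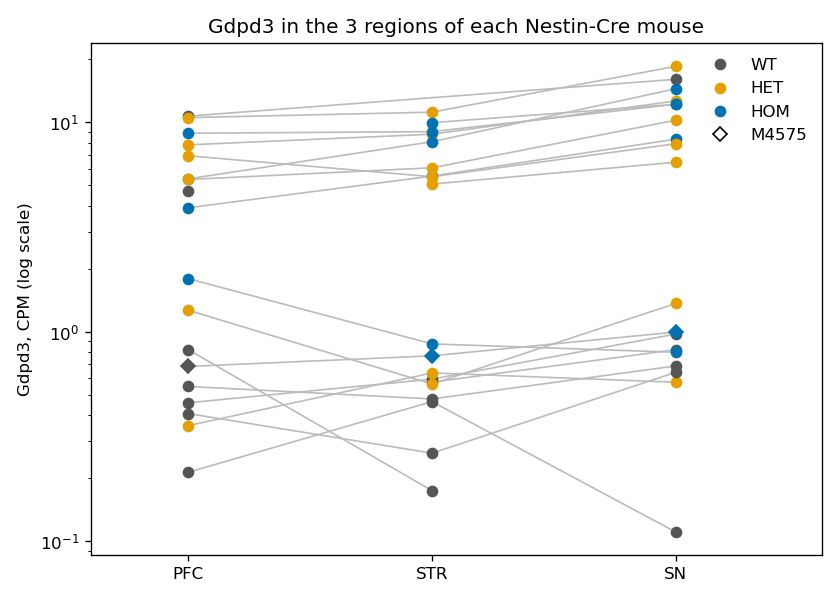
Gdpd3 in CPM (log scale) in PFC, STR and SN libraries of each Nestin-Cre mouse, coloured by the genotype label of the library, with grey lines joining the libraries of a mouse and diamonds for M4575. Lines run at separate high and low levels, with HOM M4580 low (0.799 to 1.79) and WT M4329 high (10.7 to 16.0).

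The other 4 genes with the smallest p among those higher in HOM include Nos3, described among vascular genes, and 3 genes at a few CPM. Il3ra, the receptor subunit of interleukin 3, was at 0.341 to 0.939 CPM in WT and at 0.857 in M4393, 1.13 in M4568, 2.03 in M4569, 1.90 in M4580 and 2.96 in M4627, with a log2 fold change of 1.39 ± 0.33 (SE). Only M4393 lay within the WT range. Dennd3, an activator of Rab GTPases, was at 1.57 to 2.80 CPM in WT and at 2.90 in M4393, 3.99 in M4568, 3.92 in M4569, 3.45 in M4580 and 5.88 in M4627, with 0.97 ± 0.25. Gm5089, a gene of unknown function, was at 0.834 to 1.53 CPM in WT and at 1.52 in M4393, 2.56 in M4568, 2.08 in M4569, 1.80 in M4580 and 2.57 in M4627, with 0.90 ± 0.22. The groups did not overlap for Dennd3 and touched at the lowest HOM library for Gm5089.

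Among genes lower in HOM the smallest p belonged to Cyp2s1, a cytochrome P450, at 19.2 to 26.8 CPM in WT and 21.0 in M4393, 12.5 in M4568, 13.3 in M4569, 16.1 in M4580 and 12.2 in M4627. Only M4393 was within the WT range, and the log2 fold change was -0.64 ± 0.16 (SE). The transcript 4632428C04Rik was at 1.98 to 2.72 CPM in WT and at 1.38 in M4393, 1.49 in M4568, 1.26 in M4569, 1.15 in M4580 and 1.26 in M4627, with all HOM below all WT libraries and -0.86 ± 0.23. Me2, a mitochondrial malic enzyme, was at 34.5 to 78.2 CPM in WT and at 52.6 in M4393, 33.5 in M4568, 31.8 in M4569, 30.9 in M4580 and 25.1 in M4627, with -0.75 ± 0.22. M4393 was the only HOM library inside the WT range of Me2. Tmem260, a membrane-bound mannosyltransferase, was at 19.1 to 33.4 CPM in WT and at 19.1 in M4393, 17.6 in M4568, 15.1 in M4569, 22.5 in M4580 and 21.7 in M4627, with overlapping groups and -0.47 ± 0.14.

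Among the 113 genes called by the likelihood ratio test, Gdpd3, Gm10560 and Fam107a had groups that did not overlap. Fam107a, an actin-binding protein, was at 244 to 345 CPM in WT and at 234 in M4393, 207 in M4568, 177 in M4569, 191 in M4580 and 201 in M4627, all HOM below all WT libraries, with a log2 fold change of -0.55 ± 0.19 (SE). Gm10560 was at 0.746 to 2.08 CPM in WT and at 2.11 in M4393, 3.04 in M4568, 2.47 in M4569, 4.05 in M4580 and 4.49 in M4627, with 1.15 ± 0.35.

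Genes that neighbour Gdnf on chromosome 15 showed no shared direction. Within 5 Mb of the gene the table holds 67 genes, of which 47 were tested. Of these 26 were higher and 21 lower in HOM, and the median log2 fold change was 0.01. The growth hormone receptor gene Ghr and the complement gene C7, 2 of the 47, were at p under 0.05, as were 3.26% of all genes tested.

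Whether the HOM effect differed between striatum and PFC was tested as an interaction over 35 libraries, most from the same mice. For this difference 0 of 14865 genes had a Benjamini-Hochberg adjusted p under 0.1 in edgeR's quasi-likelihood test, 287 were at an unadjusted p under 0.05 and the likelihood ratio test called 53. In the separate PFC fit, with 4 HOM libraries, 37 of 14361 genes were called, and in SN, with 5, 0 of 14849. An unadjusted p under 0.05 was reached by 9.76% of genes in PFC and 4.76% in SN, beside 3.26% in striatum. Gdnf was at 0.214 to 0.939 CPM in PFC of WT mice and 0.274 to 0.499 in SN, well under its striatal level and below the filter of both separate fits. In HOM mice other than M4575 it was at 0.0930 to 0.646 CPM in PFC, with 3 of 4 libraries below every WT library, and at 0.558 to 0.852 in SN, with all 5 above every WT library. The log2 fold change of Adora2a was -0.19 in striatum and -1.23 in PFC, where its level was 2.30 to 31.4 CPM. For Nos3 the values were 0.74 and -0.11. In edgeR's quasi-likelihood test of the difference with Benjamini-Hochberg adjustment both genes had an adjusted p of 1.00.

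List medians are set side by side, without a test of their difference. The libraries of the 3 regions come for the most part from the same mice, M4569 and M4580 included, so the regions are not separate support. Endothelial and mural markers had 0.47 in striatum, -0.05 in PFC and 0.11 in SN. Interferon response genes had 0.39, 0.05 and -0.09. Immediate-early genes had 0.46, 0.44 and 0.06, and myelinating oligodendrocyte markers -0.24, -0.44 and -0.35.

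The AAV-Cre striatum offers the same genotypes in separate mice aged 5 to 7 months, where the allele was recombined in the adult. In its 7 WT and 7 HOM libraries Gdnf was at 5.49 to 7.46 CPM with a median of 6.77 and 7.65 to 10.04 CPM with a median of 8.63. All HOM libraries lay above all WT libraries there, with a log2 fold change of 0.40 beside 0.25 in Nestin-Cre striatum. That fit also called 0 of 14655 genes in edgeR's quasi-likelihood test, with 671 at an unadjusted p under 0.05, 175 by the likelihood ratio test and 7 by DESeq2 with its own filter. Cnr1 had 0.06, Pdyn -0.01, Pvalb -0.35 and Nos3 -0.07 in AAV-Cre striatum. The list medians were -0.09 for endothelial and mural markers, -0.21 for interferon response genes, -0.08 for immediate-early genes and 0.03 for projection neuron markers.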

How the data were processed

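Per the labels and methods, the authors sequenced stranded poly(A) libraries, aligned reads with STAR 2.5.2b to mm10 and counted them in exons with featureCounts 1.5.1. The deposited values are whole read counts per gene, and the deposited exon length of each gene, another column, served only to rank members of a list by CPM per length. Genes with at least 1 CPM in 3 of the 18 Nestin-Cre striatal libraries (WT, HET and HOM) were scaled by TMM and tested two-sided with edgeR 4.0.16 (R 4.3.3), quasi-likelihood F test on the trended dispersion, Benjamini-Hochberg adjusted p under 0.1. CPM are TMM-scaled. SEs were derived from the F statistic. DESeq2 1.42.0 and the likelihood ratio test were alternatives. Named genes are Gdnf, Gfra1, Ret, the study's striatal genes, the 5 smallest p per direction, since none was called, and the 2 most abundant members per length of 37 lists. Of the genes the text describes, Drd3, Entpd1, Rxrg, Ptpn5, Pdyn, Oprk1, Pvalb, Pecam1, Flt1, Myh11, Xaf1, Irf7, Trim30a, Fos, Arc, Nr4a3, Gm10560, Fam107a, Ghr and C7 are not covered by it and were picked once their values had been seen, while Slc6a3 was a label check. Some genes covered by the rule are not reported here. Members and lists were chosen with earlier results of these data known. Striatal and PFC libraries of the same mouse number come from 1 animal, and after removal of group means 15 of 15 mice had a correlation over 0.1 across genes (median 0.300, lowest 0.146). Methods were tested on simulated data.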

Additional observations from a re-analysis of the deposited data

Results flagged for a closer look

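In 8 of 162 groups of libraries of the named genes 1 library stood far from the rest of its group, by Dixon's gap test, where chance gives about 1 in 20 groups, or 8.1. Drd1 was 242 CPM in HOM M4627, with the next HOM library at 362. Gdpd3 was 0.850 CPM in HOM M4580, with the next at 5.34. Ifi27 was 30.1 CPM in HOM M4580, with the next at 18.2. WT M4612 was low in Pde2a (793 CPM, next 960.0), Gabbr1 (712, next 853) and Chrm4 (69.9, next 125). WT M4326 was low in Prkcd (8.52 CPM, next 13.9) and high in Chrm1 (242, next 224).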

How the results depend on the processing

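The count of genes called between HOM and WT striatum, 0, was 1 with only WT and HOM libraries in the fit, 113 with the likelihood ratio test, which ignores each gene's own spread, and 1 with DESeq2, fitted to the 20078 genes with any count in place of the 14465 genes tested in edgeR. Leaving out each HOM or WT library in turn gave 0 to 1, with 1 without HOM M4580. It was 0 with the HOM library of M4575, with DESeq2's size factors, without a filter, with 1 CPM in 5 libraries, with all regions in the fit, at an adjusted p under 0.05, and without HET M4566 or without HOM M4569 and M4580, settings chosen after seeing the data. For the difference between STR and PFC, 0 became 53 with the likelihood ratio test and was 0 with mouse as a replicate block, where 442 genes had an unadjusted p under 0.05, so the pairing changed no call. In AAV-Cre striatum 0 became 175 with the likelihood ratio test, 7 with DESeq2 and 1 without a filter. Why these counts differ was not tested. Of 1539 values of the 81 genes followed under the alternatives, 1529 kept their side of the threshold and 10 passed it (7 in the likelihood ratio test and 3 for Gdpd3). Of 555 list medians 2 moved by more than the spread between mice, immediate-early genes without HOM M4569 and M4580 (-0.21) and thalamic and septal markers without HOM M4627 (-0.27). Libraries of a group differed well beyond counting noise, with a chi-square per degree of freedom of 10.5 to 82.4 over 46 pairs. This spread holds mouse, dissection and library preparation together, and how far depth limits single genes was not tested.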

Other observations

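HOM M4575, left out for its conflicting labels, had 7.85 CPM of Gdnf in the striatum on CPM scaled over all Nestin-Cre libraries, where WT libraries had 3.90 to 7.74 and HOM libraries 5.74 to 9.89. Its value lay between the highest WT and the highest HOM library. In SN it had 0.349 CPM, within the WT range there and below the other HOM libraries. The first principal component of the 18 striatal libraries held 30.2% of the variance and the next 14.8%, and neither separated HOM from WT. On the first, HOM M4627 and several HET libraries lay at 1 end and HOM M4393 and M4569 with WT M4545 at the other.

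Malat1, a nuclear noncoding RNA, was at 322 to 547 CPM in WT and at 689 in M4393, 729.5 in M4568, 391 in M4569, 754 in M4580 and 1169 in M4627. M4569 lay within the WT range and the other 4 HOM libraries above it, with a log2 fold change of 0.69 ± 0.21 (SE). Cdhr1, a cadherin of olfactory bulb output neurons, was at 5.54 to 41.9 CPM in WT and at 7.32 in M4393, 54.3 in M4568, 65.8 in M4569, 51.3 in M4580 and 1.66 in M4627. High and low libraries occurred in both groups. Both genes were chosen after their values were seen.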
